A study of Mus musculus with 16 samples.

Results

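The 8 genes described here encode the proteins that hold the nuclear pore complex in the nuclear envelope: 3 membrane nucleoporins (Ndc1, Pom121 and Nup210) and 5 subunits of the inner ring (Nup93, Nup205, Nup188, Nup155 and Nup35). They were chosen by symbol, and all 8 were found in both count tables, among 26371 symbols that the tables share. The study knocked down Nup153, a nucleoporin of the nuclear basket, in primary cortical neurons of C57/BL6 mouse embryos (embryonic day 17.5 to 19.5), and asked which genes depend on it. The embryos of 1 litter were pooled for each replicate, so litters, not animals, are the unit. An AAV carrying a control hairpin (shControl) or a Nup153 hairpin (shNup153-1 or shNup153-2) was added on day 8 in vitro, and RNA was collected on day 13. For basal cultures the labels give no drug. Silenced cultures also received tetrodotoxin, a sodium channel blocker, at 1 to 2 µM over 24 hours, and the NMDA receptor blocker D-AP5 at 100 µM over 6 hours. The groups used were basal shControl (4 libraries), basal shNup153-1 (2), basal shNup153-2 (2), silenced shControl (3) and silenced shNup153-2 (3). All groups carried an AAV, and an uninfected group was not analysed here. Per the labels, samples went on to sequencing only where Nup153 was sufficiently reduced.

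The pore is built in layers. The membrane ring spans the envelope where its inner and outer membranes meet, the inner ring lines that curved membrane and carries the central channel, and the Y complex forms the rings on both faces, to which the cytoplasmic filaments and the nuclear basket attach. In neurons, which no longer divide, several inner ring and Y complex proteins are known to turn over very slowly, so a transcript level need not follow the protein level.

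Total counts ran from 26863535 to 56299817 per library. Neuron markers summed to 3700 to 5780 CPM (read counts scaled to a common library size), astrocyte markers to 219 to 2850, oligodendrocyte lineage markers to 42.8 to 320 and microglia markers (3 of 6 listed were in the lines used) to at most 1.57. None of the markers in those lines was at 0 in every library. The cultures therefore held glial as well as neuronal RNA, and in such bulk samples fewer cells of a type and less RNA per cell cannot be told apart. Libraries of 1 group also differed in how level varied with exon length (the slope of log2 CPM, relative to each gene's mean, on log2 exon length): it was 0.131 and 0.0649 in basal shControl 1 and 3 but -0.125 and -0.0695 in basal shControl 2 and 4, and -0.144 and 0.0773 in the shNup153-1 libraries. It was 0.174 and 0.105 in basal shNup153-2, and between -0.0777 and 0.00786 in the silenced libraries. Fits without basal shControl 2 and 4, and fits with the length trend removed, are given where they change a call.

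Nup153, the target, stood at 94.5, 52.9, 77.8 and 56.8 CPM in basal shControl. It was 17.1 and 28 CPM with shNup153-1, and 13.5 and 11.6 CPM with shNup153-2. In silenced cultures it was 64.2, 52.1 and 61.8 CPM with shControl and 10.6, 13.4 and 9.38 CPM with shNup153-2. Every knockdown library lay below every control library of its state. The log2 fold change was -1.67 for basal shNup153-1, -2.52 for basal shNup153-2 and -2.40 for silenced shNup153-2 (edgeR quasi-likelihood test with Benjamini-Hochberg adjustment, adjusted p = 0.0122, 0.00502 and 0.00534). Since samples were admitted on this reduction, it checks the labels and is not a result. The adjusted p was 0.103 without shNup153-1 replicate 1, 0.0767 and 0.0928 without either basal shNup153-2 library and 0.0656 without silenced shNup153-2 replicate 1.

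Per kilobase of exon, the group means of the 8 transcripts ran from 1.85 to 14.5 CPM in basal shControl (means ± SD, n = 4). Exon length here is the union of exons over all annotated transcripts of a gene, so the order of the genes depends on the annotation. Nup93, the inner ring subunit that ties the ring to the central channel, stood highest at 14.5 ± 6.99 CPM per kb, with 1 library far above the other 3. Pom121 followed at 8.06 ± 1.90, and its gap to Nup93 was smaller than the SD of Nup93. Within each basal shControl library Nup93 stood above Pom121, most closely in replicate 1 (9.97 and 9.69 CPM per kb). An SD between libraries does not describe the order of genes within a library. Ndc1 (4.73 ± 0.973), Nup188 (4.60 ± 0.768), Nup210 (4.07 ± 0.927), Nup205 (3.24 ± 1.08) and Nup155 (2.93 ± 1.02) each differed from the next of these 5 by less than an SD. The distance between Pom121 and Ndc1 was larger than either SD. Nup35 was lowest at 1.85 ± 0.383 CPM per kb.

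Pom121 had the highest mean in the 3 knockdown groups, at 13.3 ± 1.83 CPM per kb with shNup153-1 (n = 2), 14.3 ± 0.382 with basal shNup153-2 (n = 2) and 15.4 ± 1.96 with silenced shNup153-2 (n = 3). Nup93 stood there at 6.05 ± 0.0411, 8.24 ± 1.29 and 8.87 ± 1.20 CPM per kb. In silenced shControl the 2 did not differ beyond their spread (Nup93 10.02 ± 1.37, Pom121 9.77 ± 0.632, n = 3). Nup35 was lowest in each of the 5 groups.

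Ndc1 and Pom121, which encode membrane nucleoporins, were higher in every knockdown library than in every shControl library of the same state. This held with both hairpins at basal state and with shNup153-2 in silenced cultures. Singly, 18.2%, 23.2% and 11.9% of all genes were higher without overlap in these comparisons, and the share in all of them was not computed. Nup210, the remaining membrane nucleoporin, overlapped its controls in each comparison. By the test, none of the 8 genes passed with basal shNup153-1, where 13.6% of 14529 genes passed. With basal shNup153-2, 1 passed (Ndc1, upward), where 9.55% of 19682 genes passed and 5.91% upward. In silenced cultures 2 passed (Ndc1 and Pom121, upward), where 3.45% of 18965 genes passed and 1.61% upward.

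Counted by libraries that do not overlap, 2 genes were higher (Ndc1 and Pom121) and 1 lower (Nup93) with shNup153-1, beside 18.2% and 17.9% of all genes. With basal shNup153-2, 3 were higher (Ndc1, Pom121 and Nup205) and 1 lower (Nup93), beside 23.2% and 20.7%. In silenced cultures 2 were higher (Ndc1 and Pom121) and 1 lower (Nup188), beside 11.9% and 13.5%. Between hairpins none of the 8 passed, where 4.48% of genes passed, and 5 were higher with shNup153-2 without overlap (Ndc1, Nup210, Nup93, Nup205 and Nup155, by 0.27 to 0.50 in log2), beside 33.2% of all genes. Pom121, Nup188 and Nup35 overlapped between the hairpins. The basal comparisons share their 4 control libraries, so their values for a gene are not independent.

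Ndc1 spans the membrane several times and anchors the inner ring, and Pom121 is a vertebrate protein that acts early when pores are inserted into the interphase envelope. Ndc1 lies on the plus strand of chromosome 4 (107367784 to 107416346, mm10, GENCODE M21) with 4924 exonic bases. Pom121 lies on the minus strand of chromosome 5 (135376141 to 135394546), where 11.9% of its exonic bases lie under exons of the antisense gene Nsun5. No source used here says whether the counting used strand, so reads of Nsun5 in the Pom121 count cannot be told apart.

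Because these 2 transcripts were higher in every knockdown library than in the controls of its state, their promoters are shown as RefSeq places them on GRCm38.p6, from 250 bases before to 50 bases after the start, read in the direction of transcription. Capitals mark a match to GGGCGG, the SP1 motif. The windows are chr4:107367797-107368096 (plus strand) and chr5:135394497-135394796 (minus strand). The Ndc1 window lies wholly downstream of the GENCODE start of the gene (107367784), and the bases before that start were not searched.
Ndc1: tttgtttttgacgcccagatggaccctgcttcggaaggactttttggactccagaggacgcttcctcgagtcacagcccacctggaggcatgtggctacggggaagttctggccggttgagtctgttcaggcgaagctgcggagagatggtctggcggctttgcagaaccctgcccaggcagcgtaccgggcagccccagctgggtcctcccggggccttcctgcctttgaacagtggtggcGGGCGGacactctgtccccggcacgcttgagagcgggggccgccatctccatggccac
Pom121: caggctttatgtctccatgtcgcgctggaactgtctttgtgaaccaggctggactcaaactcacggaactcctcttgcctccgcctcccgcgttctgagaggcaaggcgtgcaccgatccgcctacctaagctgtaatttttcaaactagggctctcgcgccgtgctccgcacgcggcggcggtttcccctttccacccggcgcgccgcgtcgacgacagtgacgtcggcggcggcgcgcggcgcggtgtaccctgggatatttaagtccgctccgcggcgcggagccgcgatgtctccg

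The windows were 63.7% (Ndc1) and 64.3% (Pom121) G and C. Both strands were searched for CRE (TGACGTCA), ETS (CCGGAAG), SP1 (GGGCGG), the CCAAT box, the E-box (CACGTG), YY1 (AAGATGGC) and E2F (TTTGGCGC) letters, none of which contains another. Of 32851 RefSeq promoters, 1.79%, 8.86%, 35.7%, 37.4%, 7.15%, 2.75% and 0.514% held these letters, in that order. Ndc1 held the SP1 letters once, on the plus strand at -8, and the Pom121 window held none of the 7 motifs. The 2 windows thus shared no searched motif. Among the other members, 7 of 8 genes had an entry: Nup210, Nup205, Nup188, Nup155 and 1 of 2 promoters of Nup93 also held the SP1 letters. Nup205 and Nup188 shared the YY1 letters, at 14 and 21 bases after the start, and Nup188 held them a second time at -103. The E-box was shared by Nup93 and Nup188, and the CCAAT box by Nup93 and Nup155. A match describes these letters and not binding.

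Ndc1 stood at 28.4, 17.9, 26.1 and 20.7 CPM in basal shControl. It was 35.5 and 39.1 CPM with shNup153-1, and 47.7 and 43.0 CPM with shNup153-2. All 4 knockdown libraries lay above all 4 controls. The log2 fold change was 0.93 ± 0.21 (SE) for shNup153-2 (edgeR quasi-likelihood test, adjusted p = 0.0338) and 0.65 ± 0.21 for shNup153-1 (adjusted p = 0.074), so Ndc1 rose by the test with shNup153-2. It did not pass with shNup153-1. The difference between the hairpins was 0.27 (95% interval -0.29 to 0.84, adjusted p = 0.501).

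In silenced cultures Ndc1 stood at 20.3, 24.1 and 21.7 CPM with shControl and at 33, 36.6 and 34 CPM with shNup153-2. The groups were well apart, with a log2 fold change of 0.67 ± 0.11 (adjusted p = 0.0297), a 1.59-fold rise. In the joint fit of both states it did not pass (adjusted p = 0.0678). The change differed from the basal one by -0.29 (95% interval -0.84 to 0.25, edgeR interaction, adjusted p = 0.635).

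Pom121 stood at 54.1, 34.1, 54.1 and 37.6 CPM in basal shControl. It was 67.0 and 81.4 CPM with shNup153-1 and 78.1 and 81.1 CPM with shNup153-2, above all 4 controls in each case. The log2 fold changes were 0.70 ± 0.23 and 0.79 ± 0.23 (edgeR quasi-likelihood test, adjusted p = 0.0803 and 0.0641), and neither passed. The hairpins differed by 0.09 (95% interval -0.53 to 0.71). In silenced cultures Pom121 went from 54.8, 50.9 and 57.9 CPM to 94.8, 73.8 and 89.5 CPM, without overlap. This log2 fold change of 0.68 ± 0.12 passed (adjusted p = 0.036, 1.60-fold), but not in the joint fit of both states (adjusted p = 0.0897), and it differed from the basal one by -0.14 (95% interval -0.74 to 0.45, adjusted p = 0.841).

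**Figure D1:**
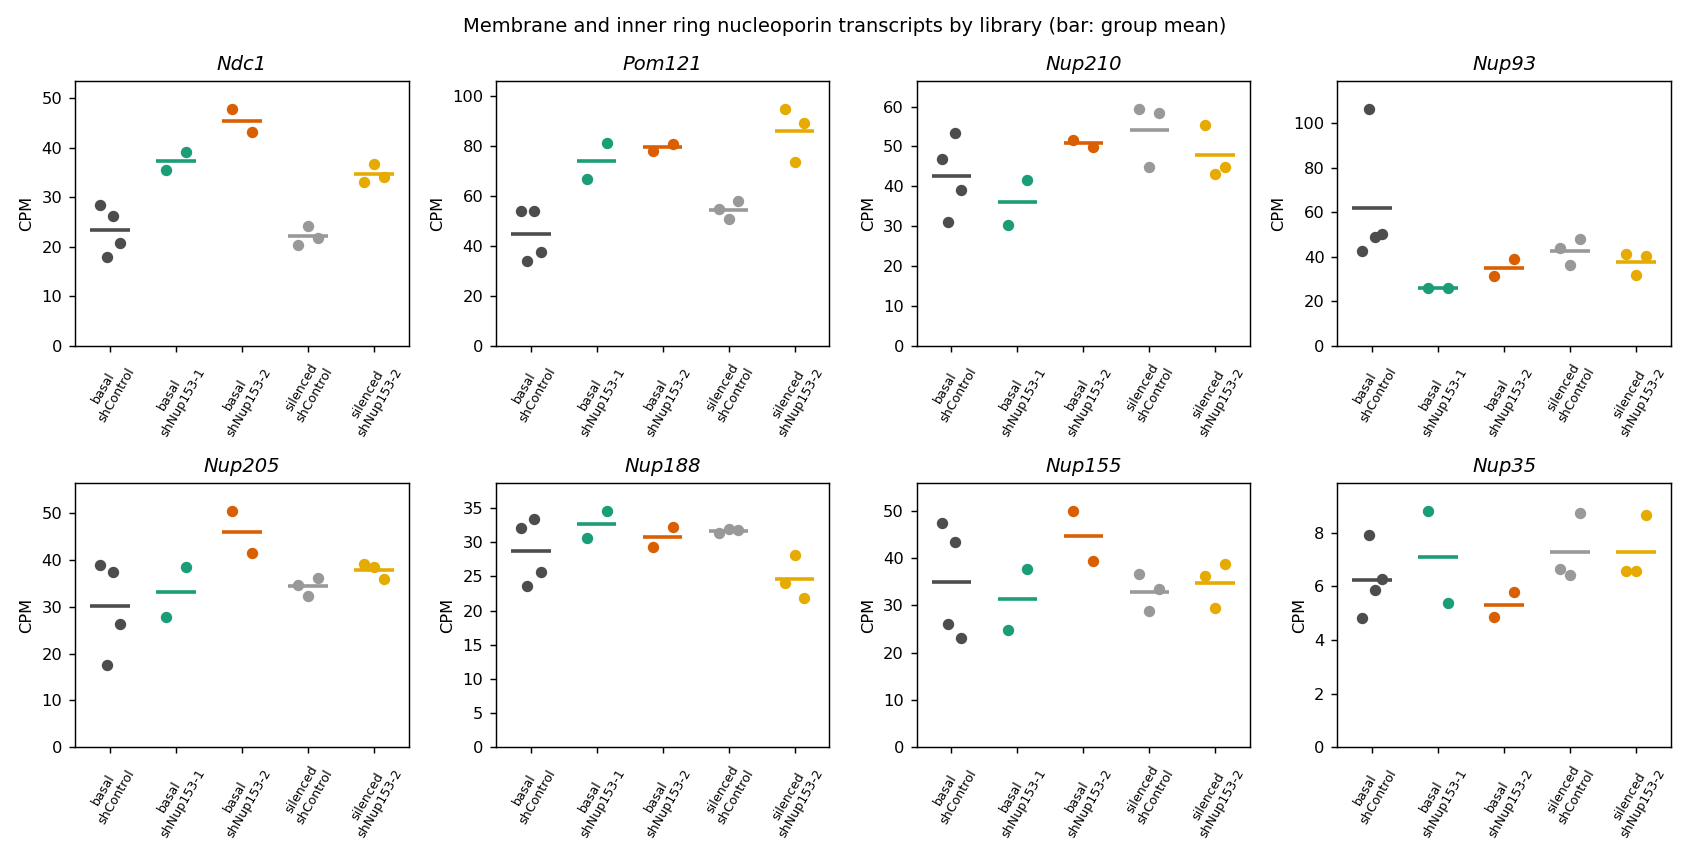
CPM of each gene (vertical axes, starting at 0) in the 14 libraries of the 5 groups (horizontal axes). Points are libraries and bars are group means; Ndc1 and Pom121 of the knockdown groups lie above the controls of their state, and 1 basal shControl library stands at 106 CPM for Nup93.

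The calls of these genes, like the number of calls over all genes, depended on single libraries. With basal shNup153-2, Ndc1 did not pass when basal shControl 4 or either knockdown library was left out. The fits without a knockdown library hold only 1 library of that group. Calls over all genes also fell in each of these omissions, to 3.29% without shControl 4 against 9.55% with all libraries. In silenced cultures Ndc1 passed in 1 of 6 omissions (without shControl 2) and Pom121 in 1 of 6 (without shNup153-2 replicate 2). Of all genes, 3.39% and 1.91% passed in these 2 fits, against 3.45% with all libraries. Without shControl 1 or 3, or shNup153-2 replicate 1 or 3, 0.0206% to 0.512% of all genes passed. The omissions were fitted without a replicate block, although same-numbered silenced libraries deviated together. With replicate number as a block and all silenced libraries, both genes passed, where 21.9% of all genes did. Over 8 alternative fits of the silenced change, this block among them, log2 fold changes were 0.653 to 0.674 for Ndc1 and 0.664 to 0.679 for Pom121. Over the omissions, the log2 fold changes moved less than the calls. They were 0.83 to 1.04 for Ndc1 at basal state, 0.60 to 0.74 for Ndc1 in silenced cultures and 0.59 to 0.78 for Pom121 there. With the length trend removed, both genes passed with shNup153-1 as well (Ndc1 0.69, adjusted p = 0.0331; Pom121 0.73, adjusted p = 0.0278), where 18.6% of all genes did. Without basal shControl 2 and 4, where the length trend is negative, the changes with shNup153-1 were 0.46 for each gene (adjusted p = 0.116 for Ndc1 and 0.12 for Pom121), and those with shNup153-2 were 0.72 for Ndc1 and 0.54 for Pom121 (adjusted p = 0.016 and 0.0286).

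Oligodendrocyte lineage markers (7 of 8 listed) summed to 199 and 320 CPM in the shNup153-1 libraries against 42.8 to 95 CPM in basal shControl and 78.1 and 85 CPM in basal shNup153-2. Astrocyte markers (8 of 8) summed to 2200 and 2520 CPM in basal shNup153-2, 1110 and 2850 in shNup153-1 and 432 to 2430 in basal shControl. In silenced cultures the astrocyte sums of replicates 1 to 3 were 461, 1140 and 219 CPM with shControl and 457, 1280 and 240 CPM with shNup153-2. They overlapped between the groups and followed the replicate number. The oligodendrocyte sums overlapped as well (112 to 190 and 65.1 to 247 CPM). The part of these cells in the values of Ndc1 and Pom121 was not tested.

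**Figure D2:**
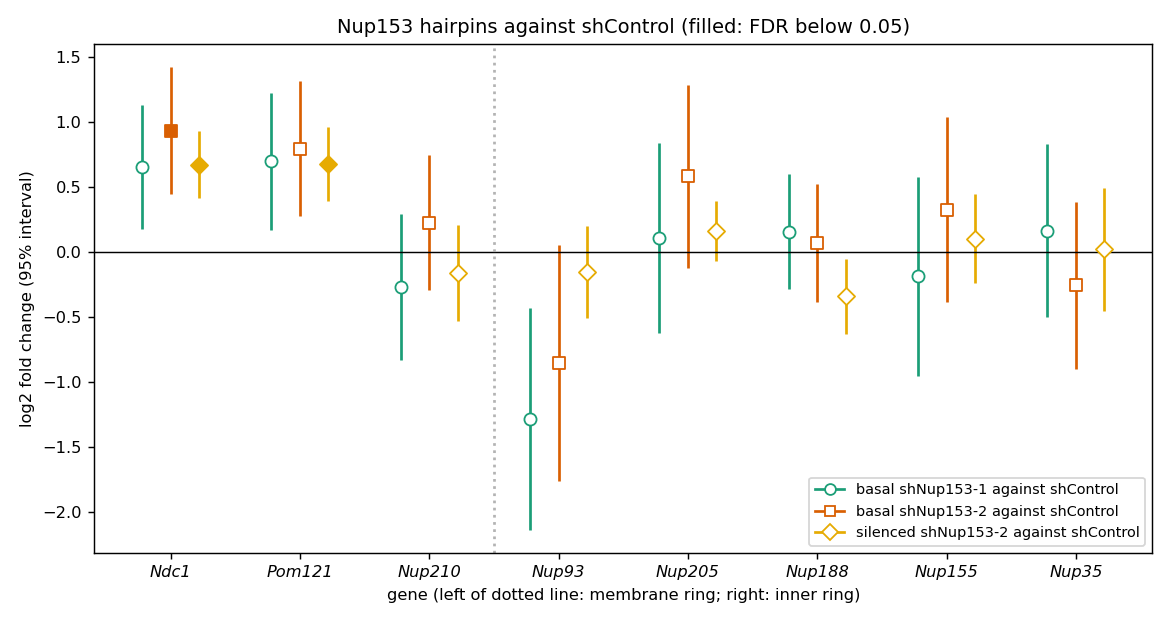
Log2 fold change (vertical axis) of each gene for the 2 hairpins at basal state and for shNup153-2 in silenced cultures, with 95% intervals from the edgeR fit. Filled symbols have an adjusted p below 0.05: Ndc1 in 2 comparisons and Pom121 in 1.

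Nup210, a single-pass membrane nucleoporin with a large lumenal part, lies on the minus strand of chromosome 6 (91013068 to 91116829). It stood at 46.9, 31.1, 53.5 and 39.0 CPM in basal shControl. The libraries of the hairpins gave 30.3 and 41.6 in shNup153-1 and 51.7 and 50 in shNup153-2. The log2 fold changes were -0.27 ± 0.25 and 0.23 ± 0.23 (edgeR quasi-likelihood test, adjusted p = 0.513 and 0.529). In silenced cultures it was 59.3, 44.8 and 58.5 CPM with shControl and 55.4, 43.0 and 44.9 CPM with shNup153-2, a change of -0.16 (95% interval -0.53 to 0.21). The basal interval with shNup153-2 was -0.29 to 0.74.

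Ratios of raw counts within a library need no scaling between libraries, but they do not remove the length trend where exon lengths differ. Nup210 has 10474 exonic bases, Pom121 5580 and Ndc1 4924, and the part of the length trend in these ratios was not tested. The pairs were chosen after their values were seen and are given without a test. Pom121 to Nup210 was 0.963 to 1.15 in basal shControl. Ratios were 1.96 and 2.21 in shNup153-1 and 1.51 and 1.62 in shNup153-2. It was 0.923 to 1.14 in silenced shControl and 1.71 to 1.99 in silenced shNup153-2. Every knockdown library thus lay above every control library. Pom121 and Ndc1 already lay above their controls while Nup210 overlapped them, so ratios to Nup210 largely restate those values. The share of all genes whose ratio to Nup210 separates the groups was not computed.

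Ndc1 to Nup210 behaved alike: 0.487 to 0.604 in basal shControl, 0.94 and 1.17 with shNup153-1, 0.861 and 0.923 with shNup153-2, 0.342 to 0.539 in silenced shControl and 0.596 to 0.853 in silenced shNup153-2. Ndc1 to Pom121 overlapped between knockdown and control in both states, at 0.482 to 0.551 in basal shControl against 0.48 to 0.611 over both hairpins, and 0.37 to 0.474 in silenced shControl against 0.348 to 0.497. Relative to Nup210, the knockdown libraries thus held more Ndc1 and Pom121 transcripts than the control libraries of their state.

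**Figure D3:**
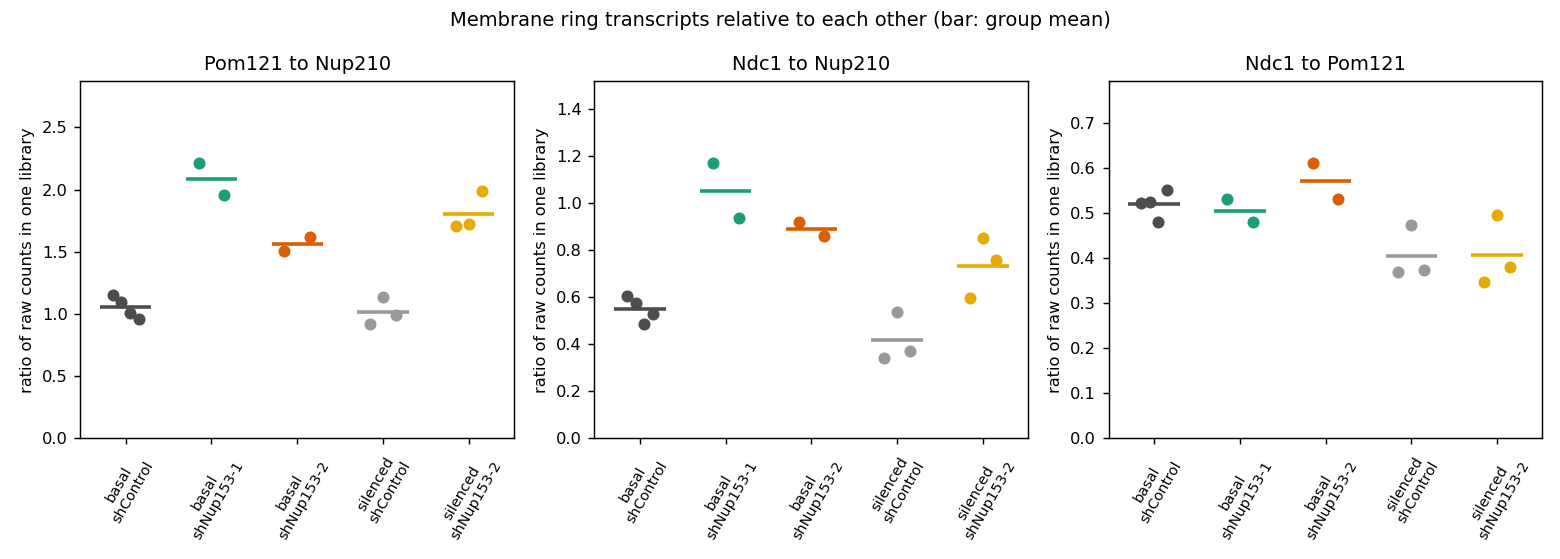
Ratio of raw counts within each library (vertical axes, starting at 0) for 3 pairs of membrane nucleoporins in the 5 groups. Points are libraries and bars are means; the 2 ratios to Nup210 separate knockdown from control in each state, and Ndc1 to Pom121 overlaps.

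Of the inner ring, Nup93 moved most at basal state. Nup93 is a scaffold subunit that binds Nup205 or Nup188 and recruits the central channel, and lies on the plus strand of chromosome 8 (94214564 to 94317227). It stood at 42.4, 106, 48.6 and 50 CPM in basal shControl. Knockdown values were 25.6 and 25.9 in shNup153-1 and 31.2 and 38.9 in shNup153-2. All 4 knockdown libraries lay below all controls, and the second control lay above every other library. The log2 fold change was -1.28 ± 0.37 with shNup153-1 (edgeR quasi-likelihood test, adjusted p = 0.0544) and -0.85 ± 0.39 with shNup153-2 (adjusted p = 0.195), and neither passed.

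Without basal shControl 2, Nup93 changed by -0.86 ± 0.19 with shNup153-1, which passed (edgeR, adjusted p = 0.0211), and by -0.45 ± 0.19 with shNup153-2, which did not (adjusted p = 0.168). Thus the library with the high value enlarged the difference and widened its error. In silenced cultures Nup93 was 43.7, 36.4 and 47.9 CPM with shControl and 41.3, 31.9 and 40.1 CPM with shNup153-2. These groups overlapped (-0.15, 95% interval -0.51 to 0.20), and the difference between states was 0.66 (95% interval -0.28 to 1.61, adjusted p = 0.546).

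Nup205 and Nup188 are large related proteins that occupy similar places on Nup93. Nup205 (plus strand of chromosome 6, 35177421 to 35247596) was 39, 17.6, 37.5 and 26.3 CPM in basal shControl. Knockdown libraries gave 27.8 and 38.4 in shNup153-1 and 50.4 and 41.4 in shNup153-2. The shNup153-2 libraries lay above all controls, but the change of 0.58 ± 0.30 did not pass (edgeR quasi-likelihood test, adjusted p = 0.24). In silenced cultures Nup205 was 34.7, 32.2 and 36.2 CPM with shControl and 39.2, 38.4 and 35.9 with shNup153-2, so that the groups overlapped (0.16, 95% interval -0.07 to 0.39).

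Nup188 (plus strand of chromosome 2, 30286397 to 30344266) was 32.2, 23.7, 33.4 and 25.7 CPM in basal shControl. Hairpin libraries gave 30.7 and 34.6 in shNup153-1 and 29.3 and 32.3 in shNup153-2. In silenced cultures it was 31.3, 31.9 and 31.9 CPM with shControl and 24, 28.1 and 21.8 CPM with shNup153-2, all 3 below the controls. This change of -0.34 ± 0.12 did not pass (adjusted p = 0.185). With replicate number as a block, which the silenced libraries allow because same-numbered ones deviated together, it was -0.35 ± 0.10 and passed (adjusted p = 0.043), beside Ndc1 and Pom121. That fit called 4161 genes (21.9%) against 654. Antisense exons of Gm14471 cover 7.88% of the exonic bases of Nup188, and exons of Gm28038 on its own strand 4.55%.

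The count ratio of Nup205 to Nup188 was 0.744 to 1.21 in basal shControl. Ratios were 0.905 and 1.11 in shNup153-1 and 1.28 and 1.72 in shNup153-2. It was 1.01 to 1.14 in silenced shControl and 1.36 to 1.65 in silenced shNup153-2. The shNup153-2 libraries lay above the controls of their state in both states, and the shNup153-1 libraries lay within the controls. With shNup153-2, Nup205 at basal state and Nup188 in silenced cultures already lay apart from their controls, so the ratio largely restates those values. The share of all gene pairs whose ratio separates the groups was not computed. Nup205 has 9306 exonic bases and Nup188 6241. The length trend was 0.174 and 0.105 in the basal shNup153-2 libraries against -0.125 to 0.131 in basal shControl, and in silenced cultures it was -0.0773 to 0.00786 with shControl and -0.0777 to -0.00928 with shNup153-2. Its part in the ratio was not tested.

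Nup155, which lines the pore membrane, has the most exonic bases of the 8 genes (11951, plus strand of chromosome 15, 8109273 to 8161247). It was 47.4, 25.9, 43.3 and 23.2 CPM in basal shControl. It was 24.8 and 37.8 in shNup153-1 and 49.9 and 39.3 in shNup153-2. The controls fell into a high and a low pair that matched the sign of their length trend, as did the 2 shNup153-1 libraries. Changes were -0.19 ± 0.34 and 0.32 ± 0.31 (edgeR quasi-likelihood test, adjusted p = 0.765 and 0.507). In silenced cultures it was 36.6, 28.7 and 33.4 against 36.2, 29.4 and 38.7 CPM (0.10, 95% interval -0.24 to 0.44).

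**Figure D4:**
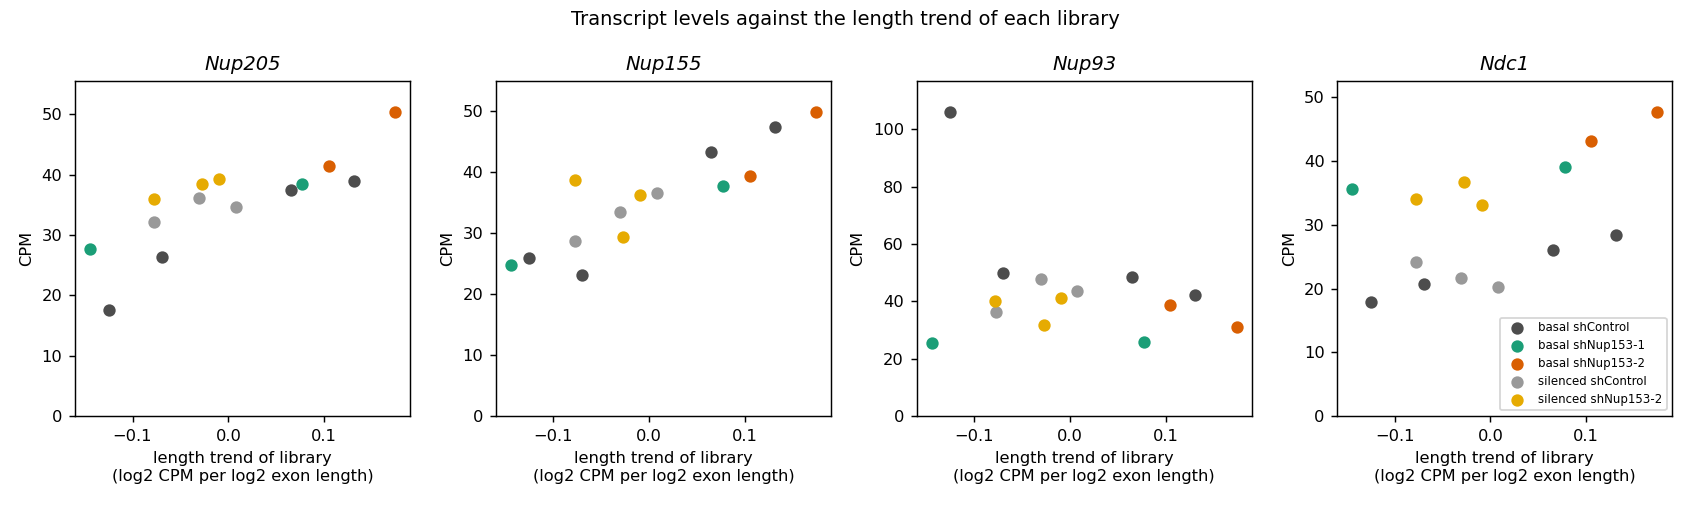
CPM of Nup205, Nup155, Nup93 and Ndc1 (vertical axes) against the length trend of each of the 14 libraries (horizontal axes, slope of log2 CPM on log2 exon length). In basal shControl the Nup155 values of 43.3 and 47.4 CPM belong to the libraries with a positive trend; Ndc1 of the knockdown libraries lies above every control library.

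Nup35, which links Nup155 and Nup93 to the membrane ring, was the least abundant and lies on the plus strand of chromosome 2 (80617236 to 80658906, of which 3.89% of exonic bases are shared with Dusp19). It ranged from 4.82 to 7.92 CPM in basal shControl, 5.37 to 8.81 with shNup153-1, 4.87 to 5.78 with shNup153-2, 6.43 to 8.75 in silenced shControl and 6.57 to 8.66 in silenced shNup153-2. No comparison separated the knockdown from the control. Its counts were 175 to 345 per library, and the 95% interval of the silenced change was -0.45 to 0.49. The part of the low counts in that width was not tested.

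The median log2 fold change of the 8 genes was 0.13 with shNup153-1, 0.27 with basal shNup153-2 and 0.06 in silenced cultures, beside -0.02, -0.03 and 0.01 over all genes tested. Within the inner ring it was 0.11, 0.07 and 0.02. Leaving out basal shControl 2 and 4 gave 1 call of 8 with shNup153-1 (Nup93) and 2 with shNup153-2 (Ndc1 and Pom121), where 17.8% and 17.3% of all genes passed.

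Silencing by itself moved none of the 8 past the threshold, either with shControl (12.4% of 20926 genes passed) or with shNup153-2 (21.7%). With shControl, log2 changes from basal to silenced were -0.59 for Nup93 (adjusted p = 0.196) and 0.29 for Nup210 (adjusted p = 0.339) by the edgeR quasi-likelihood test. Those of Ndc1, Pom121, Nup205, Nup188, Nup155 and Nup35 lay between -0.14 and 0.22. With shNup153-2, 4 of the 8 (Ndc1, Nup205, Nup188 and Nup155) were lower and 1 (Nup35) higher in silenced than in basal libraries without overlap, beside 31.1% and 34% of all genes. Pom121, Nup210 and Nup93 overlapped (changes of -0.12 to 0.08). Ndc1 had the largest of these 8 changes (-0.43, 95% interval -0.84 to -0.01, adjusted p = 0.116). The states are held in separate tables, and a difference between them in handling cannot be told apart from the state. With shNup153-2, astrocyte markers summed to 2200 and 2520 CPM in basal and 240 to 1280 CPM in silenced libraries, and cycling cell markers to 21.7 and 24.3 against 68.2 to 96.8 CPM. With shControl the astrocyte sums were 432 to 2430 and 219 to 1140 CPM, and the cycling sums 23.8 to 36.5 and 39.8 to 109 CPM. The part of these cells in the changes between states, here and among the other nucleoporins, was not tested.

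No gene at all passed for the difference of the shNup153-2 effect between states (0% of 20926 by edgeR, with 2393 at an unadjusted p under 0.05 and 285 past the threshold by DESeq2). Of the 8 genes, 6 had a smaller or more negative change in silenced cultures, with a median difference of -0.27 beside 0.01 over all genes, and none of the 8 passed. The exceptions were Nup93 (0.66) and Nup35 (0.24).

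Among 23 other nucleoporins, 0 rose and 4 of 20 tested fell with shNup153-1, 0 rose and 2 of 22 fell with basal shNup153-2, and 0 rose and 1 of 22 fell in silenced cultures. Of all genes tested, 7.05%, 3.64% and 1.83% fell in these comparisons. In the same order, 947 of 14529 genes, 5.91% and 1.61% rose. Nup153 is 1 of those that fell in each. With shNup153-1 the others were Ahctf1, the Y complex subunit that binds chromatin (-0.999, adjusted p = 0.0211), and Nup42 and Gle1, which act in mRNA export on the cytoplasmic side (-1.42 and -1.10, adjusted p = 0.00927 and 0.0121). With basal shNup153-2 it was the mRNA export factor Rae1 (-0.85, edgeR quasi-likelihood test, adjusted p = 0.0467). Between hairpins the Y complex subunit Nup43 differed (-1.80, adjusted p = 0.0456), 1 of 20 tested, where 1.67% of all genes were lower. The other basket subunits, Nup50 and Tpr, had changes between -0.17 and 0.25 in the 3 comparisons and did not pass. Leaving out shNup153-1 replicate 1 ended the calls of Ahctf1, Nup42 and Gle1, and leaving out replicate 2 that of Gle1. Either omission leaves 1 shNup153-1 library, and the number of calls over all genes fell as well. Rae1 passed in 2 of 6 omissions, and Nup43 in 1 of 4.

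From basal to silenced state, the Y complex subunit Seh1l and the channel subunit Nup54 fell with shControl (-0.67 and -0.47, edgeR quasi-likelihood test, adjusted p = 0.0149 and 0.0275), 2 of 22 tested, where 6.27% of all genes fell. With shNup153-2, 3 of 22 rose and 4 fell, where 9.39% of all genes rose and 12.3% fell. Those that rose were the Y complex subunits Nup85 (0.68, adjusted p = 0.0213) and Nup43 (1.25, adjusted p = 0.0105) and Rae1 (0.85, adjusted p = 0.00604). Those that fell were Seh1l (-0.63), the channel subunit Nup98 (-0.67), and Nup214 and Ranbp2 of the cytoplasmic filaments (-0.65 and -1.23), with adjusted p from 0.0067 to 0.0477. Over omissions of 1 library, Seh1l and Nup54 passed with shControl in 5 and 2 of 7, and with shNup153-2 the 7 genes passed in 0 of 5 (Seh1l and Nup98) to 4 of 5 (Ranbp2). All 8 membrane and inner ring transcripts stayed short of the threshold in both comparisons.

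Over the 12 libraries that exclude shNup153-1, the genes whose log2 CPM was most like that of Ndc1, among 10531 genes with a mean of at least 10 CPM, were Phf24 (Pearson r = 0.976), Stk3 (0.974) and Ece1 (0.972). These libraries share groups and depth, and r is given as a description across libraries. In the libraries left out, Ndc1 was 37.3 ± 2.49 CPM with shNup153-1 (n = 2) against 23.3 ± 4.79 in basal shControl (n = 4). Phf24 was 146 ± 59.6 and 102 ± 17.4, a difference within the SD of the former. Stk3 was 15.2 ± 1.58 and 15 ± 2.29, and Ece1 40.7 ± 6.89 and 23.1 ± 6.30. Of the members, Pom121 ranked 295 (r = 0.834), Nup205 531 (0.787), Nup155 1567 (0.611), Nup210 3565 (0.295), Nup188 4756 (0.0598) and Nup93 8818 (-0.669).

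Nup210l, a paralog of Nup210 known mainly from testis, was not a member and was looked at after its values were seen. It was 3.61, 5.38, 4.46 and 3.57 CPM in basal shControl. The libraries of the hairpins gave 0.414 and 0.86 in shNup153-1 and 0.927 and 0.665 in shNup153-2. It fell with both hairpins (-2.74 and -2.44, edgeR quasi-likelihood test, adjusted p = 0.00601 and 0.00806), but not past the threshold without shNup153-1 replicate 1 (adjusted p = 0.0554) or without either shNup153-2 library (adjusted p = 0.0937 and 0.122). In silenced cultures it was 3.98, 1.61 and 5.13 CPM with shControl and 0.856, 0.885 and 1.18 CPM with shNup153-2, without overlap (-1.86, adjusted p = 0.0708; with the replicate block -1.79, adjusted p = 0.00674). Its counts of 11 to 47 in the knockdown libraries make these values less precise than those of Nup210, which overlapped its controls in each of these comparisons. How much reads from the related Nup210 contribute was not tested.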

How the data were processed

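Poly(A) RNA was sequenced as strand-specific paired reads of primary cortical neurons. The deposited tables hold raw counts per gene symbol, made by the authors with featureCounts 2.0.1 on mm10 after FastQC, per the submitters' processing notes. For the aligner, the annotation and the strand setting, "not given in the sources used here" applies. Of 10 value columns of the basal table, 2 carry the same name and were not used, which leaves 14 libraries of 16 samples. The shNup153-1 columns were used only up to line 16399, because their correlation with shControl is 0.9738 there and 0.0991 further down. Groups come from sample titles; the descriptions of the knockdown samples name the control virus.

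CPM values use library totals scaled by TMM over 14 libraries. Counts were tested with edgeR 4.0.16 (R 4.3.3): filterByExpr with a minimum count of 10, TMM factors, a means model of the groups and the quasi-likelihood F test, with p-values adjusted by Benjamini-Hochberg across every gene in the fit (threshold 0.05). The 3 basal groups were fitted together for comparisons of shNup153-1, and the groups compared alone for shNup153-2 and for silenced cultures. Comparisons of states used a joint fit of 12 libraries. Fits were tested on simulated data with 200 changed genes. Alternatives were RLE size factors, no filter, DESeq2 1.42.0, limma-voom (limma 3.58.1), other sets of groups, a replicate block and leaving out each library. Removal of a length trend (lowess, span 0.3), leaving out basal shControl 2 and 4 and a block across states were chosen after seeing the data.

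Every member entered every comparison, although some changes are given only as library values, ranges, overlaps or counts. Other nucleoporins are named where they passed. The members and lists were chosen with earlier results of these data known. In silenced cultures same-numbered libraries deviated together (residual correlations across genes of 0.308, 0.603 and 0.651), so the numbers pair them. The reported fit has no block, and the blocked value stands beside it where it changes a call; the labels name no shared litter. At basal state the numbers do not pair (-0.559 and -0.625 with shNup153-1, 0.205 and -0.0328 with shNup153-2). No 2 libraries of a group agreed within counting noise (chi-square per gene 34.1 to 272). The promoter and annotation tables are RefSeq GRCm38.p6 and GENCODE M21.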

Additional observations from a re-analysis of the deposited data

Results flagged for a closer look

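Nup93 in basal shControl replicate 2 stood at 106 CPM while the other 3 basal shControl libraries lay between 42.4 and 50 CPM. The gap was 0.881 of the range of the group, above Dixon's 95% critical value for 4 samples, which chance passes in about 1 group of 20. The rule was applied to each of the 8 genes and to Nup153, so chance passes it somewhere more often than that. The same library had the lowest astrocyte sum of its group (432 CPM) and a negative length trend (-0.125). It also had the lowest Nup205 value (17.6 CPM) of all 14 libraries. The part of these in the Nup93 value was not tested.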

How the results depend on the processing

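No member was called with shNup153-1 in the reported fit, against 3 with DESeq2, 3 with the length trend removed (Ndc1, Pom121 and Nup93 in each) and 1 without basal shControl 2 and 4 (Nup93). Of all genes, 13.6%, 21.7%, 18.6% and 17.8% were called in these 4 fits. With basal shNup153-2, 1 was called, against 2 with DESeq2 and 2 without those controls (9.55%, 18.4% and 17.3% of all genes). In silenced cultures 2 were called, against 0 in the joint fit of both states (3.45% and 2.42% of all genes; Ndc1 adjusted p = 0.0678, Pom121 0.0897). Leaving out 1 library gave 0 to 1, 0 to 2 and 0 to 1 calls in these 3 comparisons, and 0 in the others. With a replicate block, basal shNup153-2 still gave 1 call, but of Nup93 (-0.98, adjusted p = 0.0477) and not Ndc1 (0.97, adjusted p = 0.0573). At basal state the replicate numbers do not pair the libraries, which limits what this block can show. The block within a state could not be fitted for comparisons of states. The block changed no other call of a member, besides Nup188 in silenced cultures. It ended the call of Nup153 with shNup153-1 (adjusted p = 0.206), where it called 0 of 14529 genes.

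Over all genes, calls with shNup153-1 were 1971, against 3146 with DESeq2, 1203 from its groups alone, 0 with the block and 356 to 2050 over the omissions. With basal shNup153-2 they were 1880, against 3624 with DESeq2, 3406 without basal shControl 2 and 4, and 15 to 2211. Between hairpins they were 651, against 2114 with DESeq2, 1161 with the length trend removed, 0 with the block and 0 to 500. In silenced cultures they were 654, against 1845 with DESeq2, 4161 with the block and 4 to 659. For the comparison of states, omissions gave 1069 to 3426 calls with shControl (2586 with all libraries) and 841 to 4003 with shNup153-2 (4545). The difference between states had 0, against 285 with DESeq2, 3 without the filter, 1 with limma-voom, 2 with the block, 6 from all 5 groups, 7 with the length trend removed and 0 to 12 over the omissions. Removing the length trend moved the share of calls that were higher from 61.9% to 52.2% with basal shNup153-2.

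Directions that reversed belonged to changes that did not pass. Without basal shControl 2 and 4 these were Nup205 with shNup153-1 (-0.202), and Nup188 (-0.11) and Nup155 (-0.0423) with shNup153-2. With the length trend removed they were Nup210 (-0.0273) and Nup188 (-0.064) with basal shNup153-2, Pom121 between hairpins (-0.0172), Nup35 in silenced cultures (-0.00339), Nup155 between states with shControl (0.0193), Nup210 (0.306), Nup205 (0.0674), Nup155 (0.108) and Nup153 (0.0313) between states with shNup153-2, and Nup155 for the difference between states (0.0887). Over the omissions of 1 library, changes that crossed 0 ranged as follows. With shNup153-1, Nup205 ran from -0.154 to 0.329, Nup155 from -0.531 to 0.0888 and Nup35 from -0.228 to 0.472. With basal shNup153-2, Nup188 ran from -0.00992 to 0.146. Between hairpins, Pom121 ran from -0.0468 to 0.249, Nup188 from -0.183 to 0.00504 and Nup210l from -0.121 to 0.941. In silenced cultures Nup35 ran from -0.117 to 0.161. Between states with shControl, Nup205 ran from -0.0371 to 0.303, Nup155 from -0.275 to 0.0583 and Nup210l from -0.638 to 0.0639. Between states with shNup153-2, Pom121 ran from -0.00719 to 0.184 and Nup93 from -0.0685 to 0.256. The difference between states ran from -0.113 to 0.213 for Nup153. The cause of these shifts was not tested.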
